A study of Mus musculus with 8 samples.

Results

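Lgr6, Rxfp3, Wfdc3, Smoc1, Sash3, Crispld2, Ankrd35 and Sult1a1 had at most 20 reads per library in mouse bone marrow mesenchymal stem cells kept in DMSO and 56 to 662 reads per library in the same kind of cells given ellagic acid. They are 8 of the 21899 genes in the deposited table, found by their symbols. They had been selected on the read counts compared here, so their difference between the groups is given as a description, without a test. The cells came from the femur. The 4 EA libraries are from cells given 10 µM ellagic acid for 48 h, and the 4 control libraries are from cells given an equal dose of the solvent DMSO for 48 h. Poly(A) RNA was sequenced. No genetic change, strain or age is named for either group, and nothing in the labels states that replicates are separate cultures or animals. A p-value here thus reflects the spread from library to library, which may be purely technical.

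Mesenchymal stem cells of the marrow can form bone, cartilage and fat, and they express genes of the extracellular matrix strongly while keeping genes of other lineages at very low levels. Ellagic acid is a plant polyphenol found in pomegranate and berries. Mammalian promoters fall into a broad class rich in CpG, typical of widely used genes, and a class poor in CpG, typical of genes used in few tissues. The 8 proteins have unrelated roles. Lgr6 and Rxfp3 are cell surface receptors, Wfdc3, Smoc1 and Crispld2 are secreted proteins, and Sash3, Ankrd35 and Sult1a1 act inside the cell. In the Gene Ontology terms of the deposited table, 4 of the 8 genes (Lgr6, Wfdc3, Smoc1 and Crispld2) carried an extracellular region or space term, against 11% of the 20723 genes with a component term, and 2 of the 8 (Lgr6 and Rxfp3) carried a plasma membrane term, against 28.5%. The 8 genes lie on 8 different chromosomes.

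Promoter windows of 7 of the 8 genes were matched by symbol in RefSeq (build GRCm38.p6), each running from 250 bases before a RefSeq start to 50 bases after it. Smoc1 was not among them. Whether these starts are the gene starts of the deposited table, whose build is GRCm39, was not tested. A single window is given for each gene, and other RefSeq starts, where a gene has them, were not compared. The windows of Lgr6, Rxfp3, Wfdc3 and Sult1a1 are printed because they span the range of GC content among the 7 windows and between them hold each of the 3 motifs in capitals. They are written 5′ to 3′ on the gene's strand, which is the minus strand for all 4. Capitals mark 3 motifs on either strand. GGGCGG is the GC box and reads CCGCCC from its other strand. CAGAC is a SMAD element with the form GTCTG on its other strand, and AGAACA is the half-site of the glucocorticoid receptor with the form TGTTCT on its other strand. The Lgr6 window is chr1:135105227-135105526, the Rxfp3 window chr15:11037919-11038218, the Wfdc3 window chr2:164743218-164743517 and the Sult1a1 window chr7:126676369-126676668.
Lgr6: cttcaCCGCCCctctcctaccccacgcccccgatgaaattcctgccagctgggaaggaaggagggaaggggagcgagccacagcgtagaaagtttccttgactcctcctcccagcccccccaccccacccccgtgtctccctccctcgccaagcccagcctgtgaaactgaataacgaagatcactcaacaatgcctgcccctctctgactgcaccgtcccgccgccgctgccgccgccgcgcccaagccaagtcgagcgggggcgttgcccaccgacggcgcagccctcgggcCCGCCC
Rxfp3: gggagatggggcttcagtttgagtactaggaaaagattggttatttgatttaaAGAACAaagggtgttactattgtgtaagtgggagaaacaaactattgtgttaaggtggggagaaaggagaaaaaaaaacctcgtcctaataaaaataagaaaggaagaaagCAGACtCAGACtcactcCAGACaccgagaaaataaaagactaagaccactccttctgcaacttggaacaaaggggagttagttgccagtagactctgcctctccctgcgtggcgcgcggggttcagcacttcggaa
Wfdc3: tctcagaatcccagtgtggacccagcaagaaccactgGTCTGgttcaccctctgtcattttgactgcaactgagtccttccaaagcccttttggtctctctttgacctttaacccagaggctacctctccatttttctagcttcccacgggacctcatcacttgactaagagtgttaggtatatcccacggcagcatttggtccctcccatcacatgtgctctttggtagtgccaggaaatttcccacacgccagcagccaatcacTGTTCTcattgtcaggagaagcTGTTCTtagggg
Sult1a1: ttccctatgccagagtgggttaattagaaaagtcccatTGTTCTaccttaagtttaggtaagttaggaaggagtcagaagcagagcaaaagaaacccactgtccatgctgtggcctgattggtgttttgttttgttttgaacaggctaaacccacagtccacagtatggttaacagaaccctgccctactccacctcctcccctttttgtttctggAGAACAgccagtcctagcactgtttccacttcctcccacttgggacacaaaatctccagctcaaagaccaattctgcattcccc

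The Lgr6 window is rich in G and C, with 67.7% GC and 24 CpG dinucleotides, and a CpG observed to expected ratio of 0.763. The Sult1a1 window holds 0 CpG dinucleotides at 46.3% GC. Rxfp3 (43.7% GC) had a CpG ratio of 0.515 and Wfdc3 (50% GC) one of 0.167. The 3 windows not printed had ratios of 0.167 for Sash3, 0.672 for Crispld2 and 0.605 for Ankrd35. Over 20477 windows of 16813 genes in the table, some genes having more than 1 window, the median GC was 57.0% and the median CpG ratio 0.587. A ratio under 0.4 was found in 3 of the 7 windows (Wfdc3, Sash3 and Sult1a1) and in 38.0% of all windows, so the 7 windows lay on both sides of that limit.

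A search for 13 motifs on both strands gave 37 matches in the 7 windows, with no match overlapping that of a different motif. AGAACA was present in 4 of 7 windows (Rxfp3, Wfdc3, Sash3 and Sult1a1), against 16.0% of all windows. These 4 windows hold 43.7% to 50% GC, below the median of 57.0% over all windows. The share among windows of like GC content was not tested, so 16.0% is not a matched background. In Sult1a1 AGAACA began 212 and 34 bases before the start, in Wfdc3 16 and 38 bases after it, and in Rxfp3 197 bases before it. GGGCGG was in 2 windows (Lgr6 and Ankrd35) and 47.5% of all windows. CAGAC was in 4 windows (48.4% of all), 3 times in Rxfp3, at 86, 80 and 69 bases before the start. The CCAAT box CCAAT was in 5 windows (38.0% of all), the NFAT element GGAAA in 5 (60.3% of all), the dioxin response element GCGTG in 4 (39.4% of all) and the TEAD element GGAATG in 1, that of Sult1a1 (13.4% of all). The other 6 motifs were in none of the 7 windows: the TATA box TATAAA (12.4% of all windows), the antioxidant response element TGACNNNGC (13.1%), the AP-1 element TGANTCA (7.08%), the TCF element CTTTGAT (3.22%), the cyclic AMP response element TGACGTCA (2.27%) and the SMAD palindrome GTCTAGAC (0.234%). A match describes letters in a window and not a bound site.

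The 8 libraries held 14112519 to 17390200 reads assigned to genes. TMM factors, edgeR's correction for differences in composition, were 0.878 to 0.885 in EA libraries and 1.13 to 1.14 in control libraries, so TMM scaling moves every gene of the EA libraries up against control, compared with library totals. Of 11777 genes with enough reads to test, edgeR's quasi-likelihood test with Benjamini-Hochberg adjustment called 3893 (33.1%) higher and 4027 (34.2%) lower in EA at an adjusted p under 0.05, a split of 49.2% higher among called genes that became 21.2% with library totals. All 8 genes were among those called higher. In all 8 the lowest EA library was above the highest control library in CPM (reads of a gene scaled to library size). With TMM-scaled CPM the same held for all 8 and for 29.9% of tested genes. Both counts follow from how the genes were selected. Stromal markers summed to 19277 ± 337 CPM in EA and 18317 ± 1111 CPM in control libraries (SD, n = 4 each, exact two-sided permutation adjusted p = 0.267 over 8 marker lists), most of it Col1a1 and Col1a2. The 13 stromal markers did not move together: edgeR called 7 higher and 2 lower and 1 was not tested. Pdgfra had 557 CPM in EA and 156 CPM in control libraries on library totals and Pdgfrb 459 CPM in EA and 215 CPM in control libraries, while Vcam1 had 182 CPM in EA and 349 CPM in control libraries and Ly6a 10.4 CPM in EA and 37.7 CPM in control libraries. Thy1, a defining surface marker, had 7 reads in EA and 12 in control libraries. Summed markers of other cell types stayed low: myeloid markers gave 47.5 CPM in EA and 43.0 CPM in control libraries (exact permutation adjusted p = 0.171), endothelial markers 1.10 CPM in EA and 1.89 CPM in control libraries (adjusted p = 0.0762), epithelial markers 1.96 CPM in EA and 1.54 CPM in control libraries (adjusted p = 0.267) and erythroid markers 1.84 CPM in EA and 1.71 CPM in control libraries (adjusted p = 0.886), each with 4 libraries a group. Most of the myeloid sum was Lyz2, with 45.0 CPM in EA and 38.9 CPM in control libraries. In bulk RNA, more cells of a type and more RNA per cell cannot be told apart.

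Summed over the 8 genes, the EA libraries held 11356 reads and the control libraries 214. The summed CPM was 193, 200, 169 and 164 in EA 1 to 4, and 2.91, 3.68, 3.16 and 3.97 in Control 1 to 4. EA 1 and EA 2 were above EA 3 and EA 4 in CPM for 5 of the genes (Lgr6, Rxfp3, Smoc1, Crispld2 and Ankrd35). How common this order is among all genes was not tested. Ratios below are of summed reads, EA over control with TMM scaling, with an exact 95% interval that covers counting error only. The ratio on library totals follows it for most genes.

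**Figure D1:**
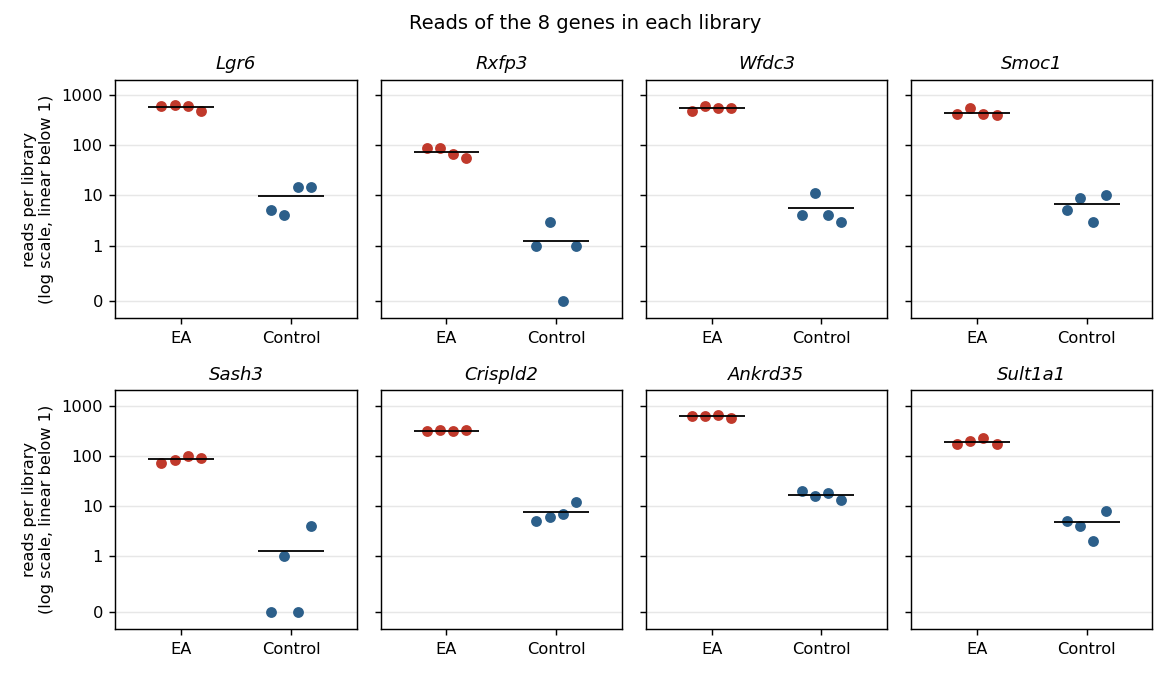
Reads of each of the 8 genes in each library, on a log axis that is linear below 1 read, with a point for each library and a line at the group mean of 4 EA or 4 control libraries. The lowest EA value in any panel is 56 reads (Rxfp3) and the highest control value is 20 reads (Ankrd35).

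Lgr6 (ENSMUSG00000042793, GRCm39 chromosome 1, 134911039 to 135033014, minus strand) is a receptor with leucine-rich repeats that binds R-spondins, secreted proteins that strengthen Wnt signalling. It marks stem cells of mouse skin. Its reads were 591, 631, 610 and 475 in EA 1 to 4, and 5, 4, 15 and 15 in Control 1 to 4. The groups did not overlap, EA 4 was the lowest EA library, and Control 3 and 4 were above Control 1 and 2. Its mean level was 5.39 ± 0.830 FPKM in EA and 0.0900 ± 0.0539 FPKM in control libraries (SD, n = 4 each), where FPKM is the reads of a gene scaled to its length and to library size. The ratio was 75.2 (interval 54.8 to 106), or 58.5 on library totals.

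Other genes of the R-spondin system did not move in 1 direction. Of 8 listed genes, 3 were tested, with 1 higher, 1 lower and a median log2 fold change of -0.08, against -0.02 over all tested genes. The ligand Rspo2 averaged 147 ± 17.4 CPM in EA and 328 ± 7.69 CPM in control libraries with TMM scaling, 2.23-fold lower in EA (edgeR adjusted p = 4.93e-12). Znrf3, the ubiquitin ligase that R-spondins clear from the membrane, averaged 57.7 ± 2.86 CPM in EA and 40.0 ± 2.33 CPM in control libraries on the same scale, 1.44-fold higher in EA (edgeR adjusted p = 1.04e-06). The sister receptor Lgr4 was not called, at 21.1 ± 1.33 CPM in EA and 22.3 ± 0.635 CPM in control libraries (edgeR adjusted p = 0.442), and Lgr5 had 5 reads in EA and 2 in control libraries. With library totals 1 of the 3 was called higher and 2 lower, and on log2(FPKM + 0.1) Znrf3 lost its call. Of 10 Wnt readout genes, the 5 tested were all called higher, with a median log2 fold change of 1.53, where 33.1% of all tested genes were called higher and their median was -0.02. The untested genes of the list were near-silent in both groups. In EA and control libraries, Nkd1 had 1 and 2 reads, Nkd2 2 and 2, Sp5 1 and 0, Notum 7 and 3 and Apcdd1 7 and 13. Lef1, a transcription factor of the pathway, was 16.2-fold higher (21.2 ± 3.48 CPM in EA and 1.29 ± 0.802 CPM in control libraries, edgeR adjusted p = 1.02e-08), and Tcf7 was 6.50-fold higher (2.34 ± 0.371 CPM in EA and 0.358 ± 0.166 CPM in control libraries, edgeR adjusted p = 5.96e-07). Tcf7 had 131 reads in EA and 25 in control libraries, and the filter keeps a gene that has enough reads in 1 group only. With library totals 3 of the 5 were called higher, Bambi lost its call (edgeR adjusted p = 0.193) and Tcf7l2 turned to -0.13 on the log2 scale.

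Rxfp3 (ENSMUSG00000060735, chromosome 15, 11033803 to 11038077, minus strand) is the receptor of relaxin-3, a neuropeptide, and is known mainly from the brain. Its gene model is 4275 bases long over a span of 4275 bases, that is, without an intron. Reads numbered 87, 87, 66 and 56 in EA 1 to 4, and 1, 3, 0 and 1 in Control 1 to 4. EA 1 and 2 were above EA 3 and 4, and the groups did not overlap. Rxfp3 had the lowest EA level of the 8 genes, 1.12 ± 0.311 FPKM, against 0.0193 ± 0.0203 FPKM in control libraries (SD, n = 4 each). The ratio of 75.3 (interval 31.9 to 234) rests on 5 control reads, and without Control 2 it was 144 (interval 39.5 to 1193) on 2 control reads.

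The other receptors of the relaxin family were near-silent in both groups. Rxfp1 had 5 reads in EA and 2 in control libraries, and Rxfp4, the closest relative of Rxfp3, had 10 in EA and 3 in control libraries. Its ligand gene Rln3 had 1 read in EA and 0 in control libraries. Of 8 listed receptor and ligand genes, Insl6, a relaxin-like peptide known from the mouse testis, was the 1 tested, and it was 1.85-fold lower in EA (1.37 ± 0.295 CPM in EA and 2.51 ± 0.752 CPM in control libraries with TMM scaling, edgeR adjusted p = 0.00913). Summed neuronal markers were 36.2 ± 2.02 CPM in EA and 36.9 ± 3.0 CPM in control libraries (SD, n = 4 each, exact permutation adjusted p = 0.784), mostly from the tubulin gene Tubb3 and from Syt1. The part of neuronal cells in the Rxfp3 reads was not tested.

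Wfdc3 (ENSMUSG00000076434, chromosome 2, 164573100 to 164587851, minus strand) belongs to the WAP four-disulfide core family, small secreted proteins many of which inhibit proteases. Its reads were 471, 600, 542 and 541 in EA 1 to 4, and 4, 11, 4 and 3 in Control 1 to 4. Control 2 stood above the other control libraries and the groups did not overlap. With 13.6 ± 1.30 FPKM in EA and 0.143 ± 0.103 FPKM in control libraries (SD, n = 4 each), Wfdc3 had the highest EA level per length of the 8 genes. Its ratio, 124 (interval 82.0 to 199), or 96.8 on library totals, was 190 (interval 106 to 382) without Control 2. It was above the other ratios on all reads, but its interval lies within those of Sash3 and Rxfp3 and overlaps those of Lgr6, Smoc1 and Sult1a1. Without Control 4 the ratio was 106 and that of Sash3 319.

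Among 19 other WAP genes, Slpi, a secreted inhibitor of leukocyte proteases, was the 1 tested and was lower in EA, at 13.6 ± 1.24 CPM in EA and 39.7 ± 2.95 CPM in control libraries with TMM scaling (2.92-fold lower, edgeR adjusted p = 5.28e-12). Of the other genes of the list, 5 had no read in any library, and the highest mean level in EA among the untested genes was 0.371 FPKM. The EA level of Wfdc3 given above, 13.6 FPKM, lay above all of these.

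Smoc1 (ENSMUSG00000021136, chromosome 12, 81073582 to 81233188, plus strand) is a secreted calcium-binding matrix protein of the SPARC family that can block BMP signalling, as shown in frog embryos, and is needed for eye and limb development in the mouse. Its reads were 408, 552, 419 and 396 in EA 1 to 4, and 5, 9, 3 and 10 in Control 1 to 4. EA 2 was the highest EA library, and the groups did not overlap. Its level was 8.12 ± 1.55 FPKM in EA and 0.124 ± 0.0596 FPKM in control libraries (SD, n = 4 each). The ratio was 83.6 (interval 57.3 to 127), or 65.0 on library totals.

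All 4 tested of 7 SPARC family relatives were called higher in EA, also with library totals, with a median log2 fold change of 1.22. Spock2, a proteoglycan of the family, averaged 398 ± 9.69 CPM in EA and 165 ± 8.46 CPM in control libraries with TMM scaling (2.41-fold higher, edgeR adjusted p = 2.47e-14), and Sparc, a collagen-binding protein abundant in bone, 2797 ± 112 CPM in EA and 1251 ± 119 CPM in control libraries (2.24-fold higher, edgeR adjusted p = 1.47e-12). The nearest relative, Smoc2, had 66 reads in EA and 9 in control libraries and was not tested. Of 10 BMP readout genes, all tested, 8 were called higher and 0 lower, with a median log2 fold change of 2.52, against 33.1% higher, 34.2% lower and a median of -0.02 over all tested genes. Atoh8, a transcription factor, averaged 153 ± 12.1 CPM in EA and 5.22 ± 0.448 CPM in control libraries (29.4-fold higher, edgeR adjusted p = 3.33e-20), and Id3, an inhibitor of helix-loop-helix factors that BMP signals turn on, 219 ± 16.8 CPM in EA and 19.7 ± 2.14 CPM in control libraries (11.1-fold higher, edgeR adjusted p = 1.84e-18). These 8 stayed called higher with library totals, where 1 of the 10 was called lower.

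Crispld2 (ENSMUSG00000031825, chromosome 8, 120719177 to 120779532, plus strand) is a secreted protein with a CAP domain that glucocorticoids induce in human airway smooth muscle. Its reads were 309, 324, 308 and 330 in EA 1 to 4, and 5, 6, 7 and 12 in Control 1 to 4. The EA libraries lay close together in reads, Control 4 was the highest control library, and the groups did not overlap. In CPM on library totals EA 3 was the lowest EA library, at 17.7 against 20.6 to 21.9 in the others. Its level was 4.25 ± 0.380 FPKM in EA and 0.0998 ± 0.0359 FPKM in control libraries (SD, n = 4 each), with a ratio of 53.9 (interval 37.5 to 80.2), or 41.9 on library totals. The gene lies inside the model of Galnt2l, which is on the same strand and had no reads.

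Of 13 other CAP genes, 3 were tested, with 1 higher, 1 lower and a median log2 fold change of 0.11. Over all tested genes 33.1% were called higher and 34.2% lower, and the median was -0.02. Pi16, a membrane-bound relative found on fibroblasts, was 3.09-fold lower (1.18 ± 0.341 CPM in EA and 3.68 ± 0.462 CPM in control libraries with TMM scaling, edgeR adjusted p = 6.47e-06). Glipr1 was 1.26-fold higher with TMM scaling (edgeR adjusted p = 8.87e-06) but turned to -0.03 on the log2 scale with library totals, where 0 of the 3 were called higher and 2 lower. The closest relative, Crispld1, had 1 read in EA and 0 in control libraries.

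Sash3 (ENSMUSG00000031101, chromosome X, 47235313 to 47250442, plus strand), also called SLY1, is an adaptor protein of lymphocytes. Its reads were 73, 81, 99 and 89 in EA 1 to 4, and 0, 1, 0 and 4 in Control 1 to 4. No EA library stood apart, 4 of the 5 control reads were in Control 4, and the groups did not overlap. Its level was 2.02 ± 0.0916 FPKM in EA and 0.0288 ± 0.0424 FPKM in control libraries (SD, n = 4 each). The ratio of 87.0 (interval 36.9 to 270) was 319 (interval 56.9 to 12643) without Control 4, on 1 control read.

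The lymphocyte markers summed to less in every EA library than in any control library. The 9 of 10 listed markers found in the table averaged a sum of 1.01 ± 0.170 CPM in EA and 3.85 ± 1.0 CPM in control libraries (SD, n = 4 each), Cd3e had no read in any library, and the sum was mostly Lck, with 38 reads in EA and 200 in control libraries (exact two-sided permutation adjusted p = 0.0762 for the sum, the raw p of 0.0286 being the smallest that 4 against 4 libraries allow). Pan-leukocyte markers summed to 9.99 to 11.2 CPM in EA and 8.16 to 9.08 CPM in control libraries (exact permutation adjusted p = 0.0762), mostly from Lcp1, and Ptprc, the common leukocyte antigen, had 17 reads in EA and 16 in control libraries. Of the family relatives of Sash3, Sash1 was 1.59-fold higher (349 ± 20.2 CPM in EA and 219 ± 18 CPM in control libraries with TMM scaling, edgeR adjusted p = 9.59e-09), and Samsn1 had 18 reads in EA and 36 in control libraries.

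Ankrd35 (ENSMUSG00000038354, chromosome 3, 96577447 to 96598348, plus strand) is a protein with ankyrin repeats. Its reads were 610, 607, 662 and 572 in EA 1 to 4, and 20, 16, 18 and 13 in Control 1 to 4. It had the most reads of the 8 genes in both groups, no library stood apart in either, and the groups did not overlap. Its level was 9.58 ± 0.770 FPKM in EA and 0.265 ± 0.0534 FPKM in control libraries (SD, n = 4 each), and its ratio of 46.5 (interval 36.5 to 60.2), or 36.2 on library totals, was below the others on all reads. Its interval overlaps those of all the other genes except Wfdc3. Without Control 3 the ratio was 47.6 and that of Sult1a1 42.6. Of 3 listed relatives with ankyrin repeats and coiled coils, Uaca was 1.54-fold higher (46.8 ± 4.41 CPM in EA and 30.5 ± 1.35 CPM in control libraries with TMM scaling, edgeR adjusted p = 6.16e-07), Rai14 was 1.26-fold higher with TMM scaling (edgeR adjusted p = 6.43e-05) and at -0.03 on the log2 scale with library totals, and Ankrd24 was not called (edgeR adjusted p = 0.230). With TMM scaling 2 of the 3 were called higher and 0 lower, against 33.1% and 34.2% of all tested genes. With library totals 1 of the 3 was called higher and 1 lower.

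Sult1a1 (ENSMUSG00000030711, chromosome 7, 126272037 to 126275604, minus strand) is a cytosolic sulfotransferase that attaches sulfate to phenols. Its reads were 170, 196, 225 and 169 in EA 1 to 4, and 5, 4, 2 and 8 in Control 1 to 4. EA 3 was the highest EA library in reads and the groups did not overlap. Its level was 8.01 ± 0.715 FPKM in EA and 0.200 ± 0.0963 FPKM in control libraries (SD, n = 4 each), and the ratio was 50.9 (interval 32.3 to 84.9), or 39.6 on library totals. The 61 bases at its 3′ end overlap the 3′ end of Sgf29 on the opposite strand, and the strand setting of the counts is not given in the sources used here. Sgf29 had 282 reads in EA and 274 in control libraries.

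None of 20 other cytosolic sulfotransferase genes had enough reads to test, and 12 had no read at all. The 2 with the most reads were Sult6b1, with 16 in EA and 46 in control libraries, and Sult2b1, with 2 in EA and 22 in control libraries. The highest mean level in EA among the 20 was 0.120 FPKM, against 8.01 FPKM for Sult1a1. All 7 genes that supply or recycle the sulfate donor PAPS were tested, with 4 higher, 1 lower and a median log2 fold change of 0.22. Over all tested genes 33.1% were called higher and 34.2% lower, and the median was -0.02. The sulfate transporter Slc26a2 was 4.01-fold lower (77.7 ± 5.0 CPM in EA and 312 ± 62.7 CPM in control libraries with TMM scaling, edgeR adjusted p = 8.51e-08), and Bpnt2, a phosphatase of the Golgi, was 1.53-fold higher (317 ± 19.9 CPM in EA and 206 ± 27.4 CPM in control libraries, edgeR adjusted p = 2.38e-06). The PAPS carrier Slc35b2 was 1.19-fold higher with TMM scaling (edgeR adjusted p = 0.00952) and at -0.12 on the log2 scale with library totals, where 1 of the 7 genes was called higher and 3 lower. Papss2 and Slc35b3, also called higher with TMM scaling, lost their calls with library totals and turned to -0.14 and -0.07 on the log2 scale.

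Of 24 other conjugation genes, 15 were tested, with 8 higher, 3 lower and a median log2 fold change of 0.32, against 33.1% higher, 34.2% lower and a median of -0.02 over all tested genes. Ugdh, which makes the glucuronic acid donor also used for hyaluronan, averaged 190 ± 14 CPM in EA and 44.6 ± 3.24 CPM in control libraries with TMM scaling (4.26-fold higher, edgeR adjusted p = 4.67e-16), and Gsto1, a glutathione transferase, was 1.71-fold higher (326 ± 15.6 CPM in EA and 191 ± 13.4 CPM in control libraries, edgeR adjusted p = 4.20e-10). The glucuronosyltransferase Ugt1a6a was 7.34-fold lower on 7 reads in EA and 69 in control libraries (edgeR adjusted p = 0.000183), but it shares exons with other Ugt1a genes and its counts are uncertain. Its mean was 0.132 CPM in EA and 0.979 CPM in control libraries with TMM scaling. The filter keeps a gene that has enough reads in 1 group only, so this call is weak support for a lower level. Gsta4 was 1.40-fold lower (edgeR adjusted p = 0.00296). With library totals 5 of the 15 were called higher and 5 lower. Over all 12 lists, 131 genes were listed, 53 were tested, and 34 were called higher and 8 lower, where 33.1% and 34.2% of all tested genes were called higher and lower.

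**Figure D2:**
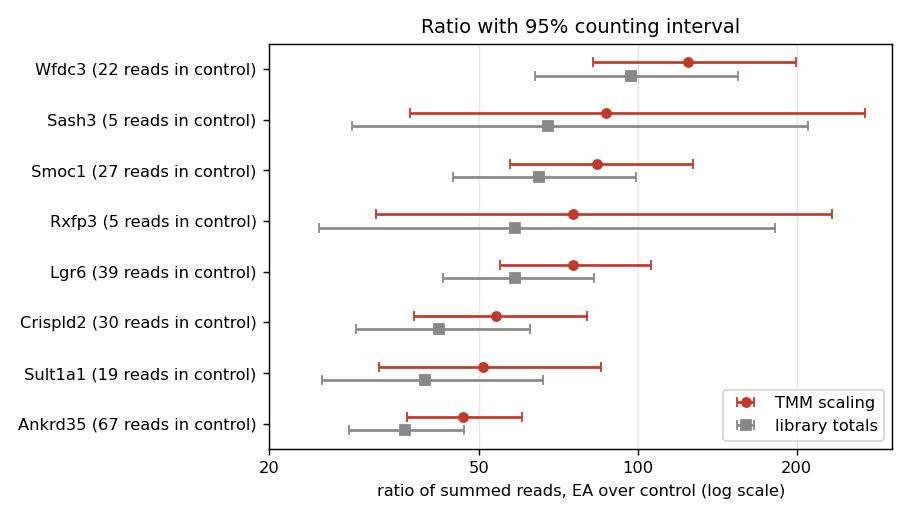
Ratio of summed reads, EA over control, for each of the 8 genes on a log axis, with exact 95% counting intervals, for TMM scaling and for library totals, and the number of control reads behind each. Intervals are widest for Sash3 and Rxfp3, which have 5 control reads each, and every interval lies above 20.

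Per length, the EA levels of the 8 genes lay, from highest to lowest, in the order Wfdc3, Ankrd35, Smoc1, Sult1a1, Lgr6, Crispld2, Sash3 and Rxfp3. The ranges of the 4 EA libraries overlapped between Ankrd35 and Smoc1, between Smoc1 and Sult1a1, and between Lgr6 and Crispld2, and did not overlap between the other neighbours in that order. Among the 17368 genes with a read, the EA levels in FPKM lay between percentile 45.3 (Rxfp3) and 82.4 (Wfdc3), and the control levels between 15.7 (Rxfp3) and 33.2 (Ankrd35). The lowest EA library exceeded the highest control library in CPM by 17.1-fold for Rxfp3 up to 41.5-fold for Wfdc3. Within the EA group, the coefficient of variation of CPM was above that expected from read counting alone in 7 of the 8 genes, with Rxfp3 at 27.8% against 11.6% from counting, Smoc1 at 19.0% against 4.75% and Lgr6 at 15.4% against 4.16%. Sash3 was the exception, at 4.52% against 10.8%. In control libraries, 6 of the 8 genes had at least 1 read in every library, Rxfp3 was at 0 in 1 library and Sash3 in 2.

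To place the 8 genes in the whole table, genes were counted that averaged under 1 CPM in control and at least 5 CPM in EA libraries on library totals. There were 22 such genes among 10478 under 1 CPM in control (0.210%), and the mirror set, under 1 CPM in EA and at least 5 CPM in control, had 18 of 10736 (0.168%). The set of 22 held 6 of the 8 genes. Ankrd35 missed it at 39.1 ± 3.14 CPM in EA and 1.08 ± 0.218 CPM in control libraries, and Rxfp3 at 4.78 ± 1.33 CPM in EA and 0.0824 ± 0.0867 CPM in control libraries (SD, n = 4 each). With TMM-scaled CPM all 8 were in the set. By EA level in CPM, Nfatc2, a calcium-regulated transcription factor that was named after its values were seen because it led the set, came before them with 53.5 CPM in EA and 0.471 CPM in control libraries, followed by Lgr6, Wfdc3, Smoc1 and Crispld2 in places 2 to 5, with Sult1a1 in place 10 and Sash3 in place 21. The counts depend on the limits chosen, and a floor of 2 CPM gave 64 genes in the EA set and 145 in the mirror set.

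**Figure D3:**
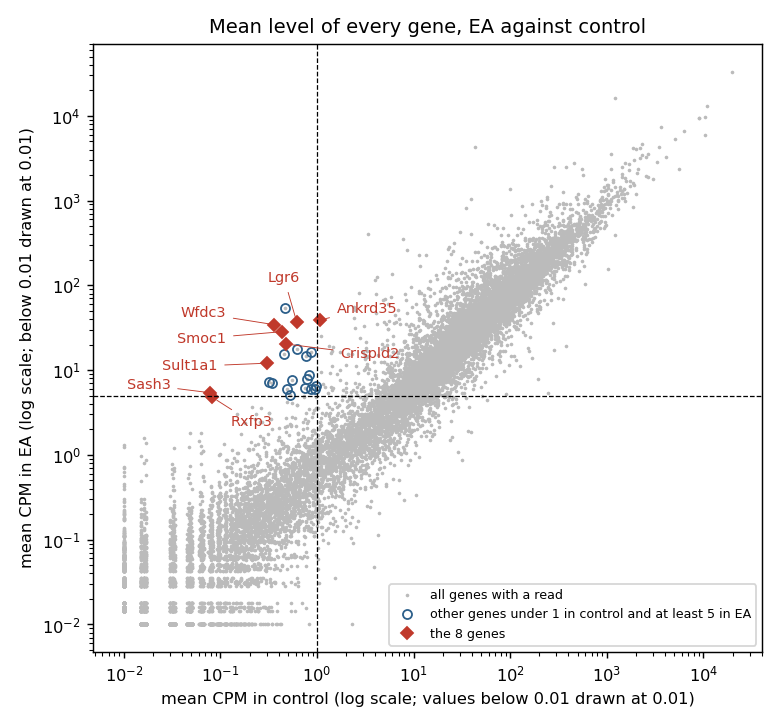
Mean CPM on library totals in EA libraries (vertical, log axis) against control libraries (horizontal, log axis) for all 17368 genes with a read, with the 8 genes as diamonds, the other genes under 1 CPM in control and at least 5 CPM in EA as open circles, and dashed lines at those limits. Ankrd35 lies just right of the 1 CPM line and Rxfp3 just under the 5 CPM line.

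The genes outside the 8 whose profile over the 8 libraries was nearest to the mean profile of the 8, in Euclidean distance of log2 CPM with a prior count of 2, were Nr4a3, Serpina3m, Sema7a, Omd and Orm1. Genes with provisional symbols were left out of this list. Nr4a3, an orphan nuclear receptor, was nearest at a distance of 1.05, with 989 reads in EA and 28 in control libraries. Serpina3m, a serine protease inhibitor, had 1131 reads in EA and 39 in control libraries at a distance of 1.66, and Sema7a, a membrane-anchored semaphorin, 925 reads in EA and 48 in control libraries at a distance of 2.20. Omd, a keratan sulfate proteoglycan of bone matrix, had 1020 reads in EA and 55 in control libraries at a distance of 2.21, and Orm1, an acute-phase plasma protein, 480 reads in EA and 34 in control libraries at a distance of 2.68. Reads of Serpina3m and Orm1 are uncertain because near-identical copies exist in the mouse genome. The 8 genes themselves lay at distances of 0.991 (Crispld2) to 4.48 (Rxfp3), and 33 other genes were nearer than Rxfp3, so the 8 are not a closed group by this measure.

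The nearest protein-coding genes on either side were compared to see whether a whole neighbourhood was higher in EA. Of 16 neighbours, 11 were tested, 6 were called higher and 1 lower, with a median log2 fold change of 0.40, against 33.1% higher, 34.2% lower and a median of -0.02 over all tested genes, and with library totals 2 were called higher and 2 lower. Itga10, a collagen-binding integrin subunit that starts before Ankrd35 and ends 5611 bases from it, was the neighbour with the largest fold. Its mean was 280 ± 4.73 CPM in EA and 38.1 ± 6.43 CPM in control libraries with TMM scaling (7.35-fold higher, edgeR adjusted p = 6.20e-14). On the other side of Ankrd35, Pias3 was 1.42-fold higher (edgeR adjusted p = 8.99e-06). Dnttip1, whose model starts 51 bases beyond the start of Wfdc3 and runs the other way, was 1.54-fold higher at 25.3 ± 2.55 CPM in EA and 16.4 ± 0.587 CPM in control libraries (edgeR adjusted p = 5.41e-06), while Spint5 on the other side had no reads.

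Ptpn7 beside Lgr6 was 1.83-fold higher (edgeR adjusted p = 0.00592), Slc8a3 beside Smoc1 2.28-fold higher (edgeR adjusted p = 0.0139) and Zdhhc7 beside Crispld2 1.17-fold higher (edgeR adjusted p = 0.00894). The calls of Ptpn7, Slc8a3 and Pias3 were lost with library totals, that of Slc8a3 also without EA 4 (log2 fold change 0.72), and Zdhhc7 turned to -0.14 on the log2 scale with library totals. Slx1b beside Sult1a1 was 1.57-fold lower (edgeR adjusted p = 0.0187), a call lost without Control 1 (log2 fold change -0.51), without EA 2 (-0.55) or without EA 3 (-0.56). Sgf29, which overlaps Sult1a1, was not called (edgeR adjusted p = 0.0549) and became called without Control 1 (log2 fold change 0.50) or without EA 3 (0.50). Ube2t beside Lgr6 (edgeR adjusted p = 0.833), Adamts12 beside Rxfp3 (edgeR adjusted p = 0.713, and -0.30 on the log2 scale with library totals, also not called) and Zdhhc9 beside Sash3 (edgeR adjusted p = 0.546, and a called -0.30 on the log2 scale with library totals) were not called, and Slc45a2, Slc10a1, Xpnpep2, Galnt2l and Spint5 had too few reads to test.

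**Figure D4:**
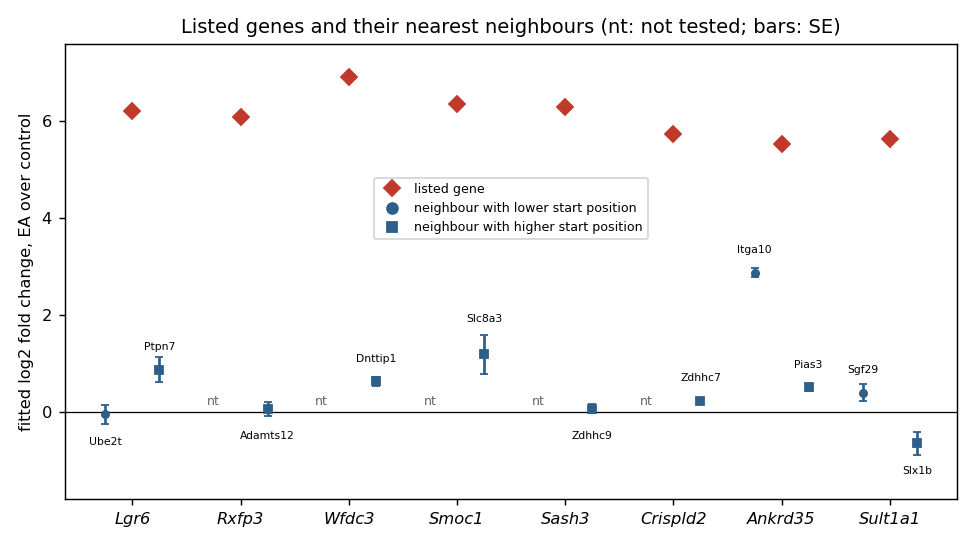
Fitted log2 fold change, EA over control, of each of the 8 genes (diamonds) and of its nearest protein-coding neighbours by start position (circles and squares, bars are the standard error from the fit of 4 EA and 4 control libraries), with nt for neighbours not tested. The 8 genes lie between 5.53 and 6.93, and the highest neighbour, Itga10, at 2.88.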

How the data were processed

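Gene read counts and FPKM values of 4 EA and 4 control libraries were deposited by the authors in 1 table. Per the submitters' processing notes, reads were trimmed with cutadapt 1.15 and aligned with HISAT2 2.0.5, and the build is GRCm39. The counting program, its use of strand and its annotation version were not given in the sources used here. Recomputing 117047 of the authors' deposited FPKM values from counts, gene lengths and column totals left differences of at most 3.56e-14 of the value.

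The 8 genes and all gene, marker and motif lists were chosen with earlier results of these data known. Counts were fitted in R 4.3.3 with edgeR 4.0.16 (TMM factors, the default filter by group, robust quasi-likelihood F test, EA against control without covariates), with Benjamini-Hochberg adjustment over 11777 tested genes and calls at an adjusted p under 0.05. The fit was tested on simulated data with smaller fold changes in genes with more control reads. That test does not cover ratios and control counts like those of the 8 genes. Raw counts per library, CPM on library totals, TMM-scaled CPM and pooled ratios with exact conditional binomial 95% intervals were computed with Python 3.11.15 and scipy 1.17.1. Intervals cover counting error only. Libraries held 14112519 to 17390200 counts. What edgeR names the biological coefficient of variation was 7.78%, a spread between libraries that may be purely technical here.

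Named genes were the 8 genes, up to 2 called higher and 2 called lower genes of each of 12 relatives' lists with the smallest p (the 2 with most reads where none was called), both neighbours of each gene, the 5 nearest profiles and the marker genes with the most reads. Provisional symbols were left out of the nearest profiles. Receptors and sister genes outside that rule (Lgr4, Lgr5, Rxfp1, Rxfp4, Rln3, Smoc2, Crispld1, Samsn1, Ankrd24, Bambi and Tcf7l2), the untested Wnt readout genes (Nkd1, Nkd2, Sp5, Notum and Apcdd1) and Nfatc2, and the markers Thy1, Pdgfra, Pdgfrb, Vcam1, Ly6a, Cd3e, Ptprc and Syt1, were named after their values were seen. Papss2 and Slc35b3 were likewise named after their values were seen. Summed CPM of 8 marker lists was compared by exact two-sided permutation over 70 assignments. Of 10 lymphocyte markers, 1 was not used here. Alternatives were other scalings, filters, DESeq2 1.42.0, limma 3.58.1 on log2(FPKM + 1) and log2(FPKM + 0.1), a replicate block and leaving out each library. RefSeq windows are from another build than the table, so their coordinates are given apart.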

Additional observations from a re-analysis of the deposited data

Results flagged for a closer look

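The spread within each group of 4 libraries was examined for 96 groups of the 8 genes, their named relatives and their neighbours. A library was singled out when its gap to the nearest other library, divided by the range of the group, was above Dixon's critical value at the 95% level, which chance gives for about 1 in 20 groups, and 6 groups were singled out. Among the 8 genes this was Wfdc3, where Control 2 held 11 reads, or 0.751 CPM, against 0.180 to 0.259 CPM in the other control libraries (gap ratio 0.862). Without that library the ratio of EA to control reads was 190 in place of 124.

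Among relatives and neighbours, Rspo2 was high in EA 4 at 152 CPM against 120 to 123 CPM in the other EA libraries (gap ratio 0.900). Gsto1 was low in Control 3 at 195 CPM against 221 to 225 CPM in the other control libraries (gap ratio 0.868). Ube2t was high in EA 3 at 4.83 CPM against 3.61 to 3.70 CPM in the other EA libraries (gap ratio 0.929). Sult2b1 had its 2 EA reads in EA 4, and Slc45a2 its 2 control reads in Control 2, with 0 in the other libraries of the group (gap ratio 1 for each).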

How the results depend on the processing

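The 8 genes stayed higher in EA under every alternative that gave them a value, with log2 fold changes of 1.04 to 7.81. The lowest came from log2(FPKM + 1), a scale that understates changes of low genes. A filter of CPM above 1 in all libraries left none of them. Of 128 alternative values, 27 moved by more than the spread between libraries and 0 reversed. Their median log2 fold change, 6.16, was 5.81 with library totals, 2.72 with log2(FPKM + 1), 4.77 with log2(FPKM + 0.1) and 5.82 to 6.25 when 1 library was left out, so the scale moved it more than any single library. Control counts of 5 reads for Rxfp3 and Sash3 limit the precision of their ratios.

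The scaling decided the balance of all calls. The 3893 higher and 4027 lower genes became 1940 and 7196 with library totals, 1924 and 7170 with log2(FPKM + 1) and 1922 and 7179 with log2(FPKM + 0.1). Higher genes were 49.2% of calls with TMM, 34.6% with upper-quartile factors and 21.2% with library totals, and the median over every tested gene, -0.02 with TMM on the log2 scale, was -0.38 with library totals, -0.27 and -0.37 with the FPKM scales and -0.17 with upper-quartile factors. DESeq2 gave 3976 higher and 3917 lower genes. Lower relatives, 8 with TMM, numbered 14 with upper-quartile factors, 16 with library totals, 17 with log2(FPKM + 1), 16 with log2(FPKM + 0.1) and 5 with the CPM filter. Neighbours, 6 higher and 1 lower, were 2 and 2 with library totals and both FPKM scales, and lower neighbours were 0 to 1 when 1 library was left out.

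With library totals, directions turned for Tcf7l2 (-0.13), Papss2 (-0.14) and Slc35b3 (-0.07). They also turned for 6 of the genes named by the rule with library totals, log2(FPKM + 1) and log2(FPKM + 0.1), each given in that order as a log2 fold change. Glipr1 had -0.034, -0.034 and -0.035, Rai14 had -0.028, -0.030 and -0.031, Slc35b2 had -0.12, -0.10 and -0.11, Zdhhc7 had -0.14, -0.13 and -0.14, Zdhhc9 had -0.30, -0.24 and -0.29, and Adamts12, called in none of these, had -0.30, -0.19 and -0.30. With upper-quartile factors Zdhhc9 and Adamts12 also turned, to -0.091 and -0.095. Of the summed marker lists, 5 of 8 moved with TMM scaling, an alternative chosen after seeing the data, and the neuronal log2 ratio, not called, turned to 0.33 from -0.03.

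The sets of genes near-silent in one group and present in the other, 22 in EA and 18 in control, were 10 and 6 with a ceiling of 0.5 CPM, 45 and 112 with a ceiling of 2 CPM, 64 and 145 with a floor of 2 CPM and 10 and 3 with a floor of 10 CPM, and the control set was 10 with TMM-scaled CPM. Deviations of same-numbered EA and control libraries correlated at -0.02 to 0.03, and those of differently numbered libraries at -0.11 to 0.10. The labels do not state a pairing, and these correlations over 4 libraries per group cannot decide whether cultures were paired. With the replicate number as a block, 3834 genes were called higher and 3960 lower. The cause of these changes was not tested.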
